A study of Mus musculus with 12 samples.

Results

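The genes described here encode the proteins of the mitochondrial ribosome. They were taken by symbol: a probe counted when the platform annotation gave it a single symbol made of Mrpl or Mrps and a number. It also had to have a detection p-value under 0.05 on at least 2 of the 12 arrays. Of 76 such genes with a probe on the array, 69 passed, out of 9791 genes with a passing probe in all. Each gene is represented by its passing probe with the highest mean signal. The rule used no difference between groups.

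The arrays held RNA of hematopoietic stem cells (HSCs) sorted from mouse bone marrow, 200 cells per array. The gate took CD150+ CD48- cells of the lineage- fraction that was Sca-1+ and c-kit+. The 6 groups had 2 arrays each, labelled biological replicates, and the p-values below measure the spread between these arrays, since no label says whether they came from separate mice. Winners were the R26-mp53 cells of irradiated mosaic mice, which expressed mutant p53 (mp53) together with GFP. Losers were the GFP-negative wild-type (WT) cells of irradiated mosaic mice. Non-competing irradiated mp53 cells came from fully recombined R26-mp53 mice, and non-competing irradiated WT cells from WT mice. Irradiated mice had received 2.5 Gy and were taken after 3 weeks. The last groups were the mp53 cells and the WT cells of unirradiated mosaic mice, labelled as not in competition. The recombinase, the ages of the mice and any pooling of animals were not among the labels.

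The mitochondrial ribosome translates the few proteins encoded by mitochondrial DNA, all of them core subunits of the respiratory chain and of ATP synthase. Its own proteins are encoded in the nucleus, made in the cytosol and imported. Some have counterparts in bacterial ribosomes, and others are found only in mitochondria. HSCs are known for keeping a low mitochondrial activity while quiescent.

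Of the 69 members, 46 belong to the large subunit and 23 were counted with the small subunit. By number, 38 are of the bacterial type and 30 are mitochondria-specific. Mrps18a, a paralog of Mrps18c whose product sits in the large subunit, was put in the large subunit and in neither class. Mrps30 was counted with the small subunit by its symbol, although its product is part of the mammalian large subunit. The 7 genes that did not pass were Mrpl10, Mrpl41, Mrpl45, Mrps14, Mrps18b, Mrps22 and Mrps36. Of these, Mrps18b was detected on 1 array and the other genes on none. At the edge of the rule, Mrpl4 and Mrps26 were detected on 2 arrays each (mean levels 4.61 and 4.59), and Mrpl9 and Mrpl57 on 3 arrays (4.68 and 4.49). In this account a level is the log2 of the background-corrected and quantile normalized intensity, so that a difference of 1 is a doubling.

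Most members were detected on most arrays, after a filter that already asked for detection on 2. All 12 arrays detected 44 of the 69 members (63.8%), against 32% of all probes that passed the same filter. The share was 82.7% for cytosolic ribosomal protein genes and 73.9% for respiratory chain genes. At least 10 arrays detected 58 members. The brightest probes were those of Mrpl33 (mean level 11.22), Mrps30 (10.98), Mrpl23 (10.94), Mrpl17 (10.83) and Mrps12 (10.45). Mrps12 is the counterpart of the bacterial protein that guards decoding accuracy. The dimmest were those of Mrpl57 (4.49), Mrps26 (4.59), Mrpl32 (4.60), Mrpl4 (4.61) and Mrpl9 (4.68). A probe's signal depends on its sequence, so these levels do not rank the amounts of the transcripts.

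Detection was lowest on the 2 dimmest arrays and highest on the brightest one. The 95th percentile of raw intensity was lowest for replicate 1 of the mp53 cells of unirradiated mosaic mice (82.3), which detected 44 members, and for loser replicate 1 (107), which detected 53. It was highest for winner replicate 2 (1079), which detected all 69. Between these the order did not hold throughout. Replicate 2 of the non-competing irradiated mp53 cells (482) detected 63 members, and replicate 1 of the unirradiated WT cells (265) detected 66. The median member level was 6.53 on the dimmest array and 6.93 to 7.82 on the other 11. Over the 44 members detected on all 12 arrays, however, the dimmest array had the highest median, 8.83 against 8.05 to 8.68. Over the members missed on at least 1 array it had the lowest, 4.46 against 4.72 to 5.79. That dimmest array held the lowest value of 24 members. Of the genes that define the gate, Slamf1, which encodes CD150, was detected on no array of the winners, of either non-competing irradiated group or of the unirradiated mp53 cells.

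**Figure D1:**
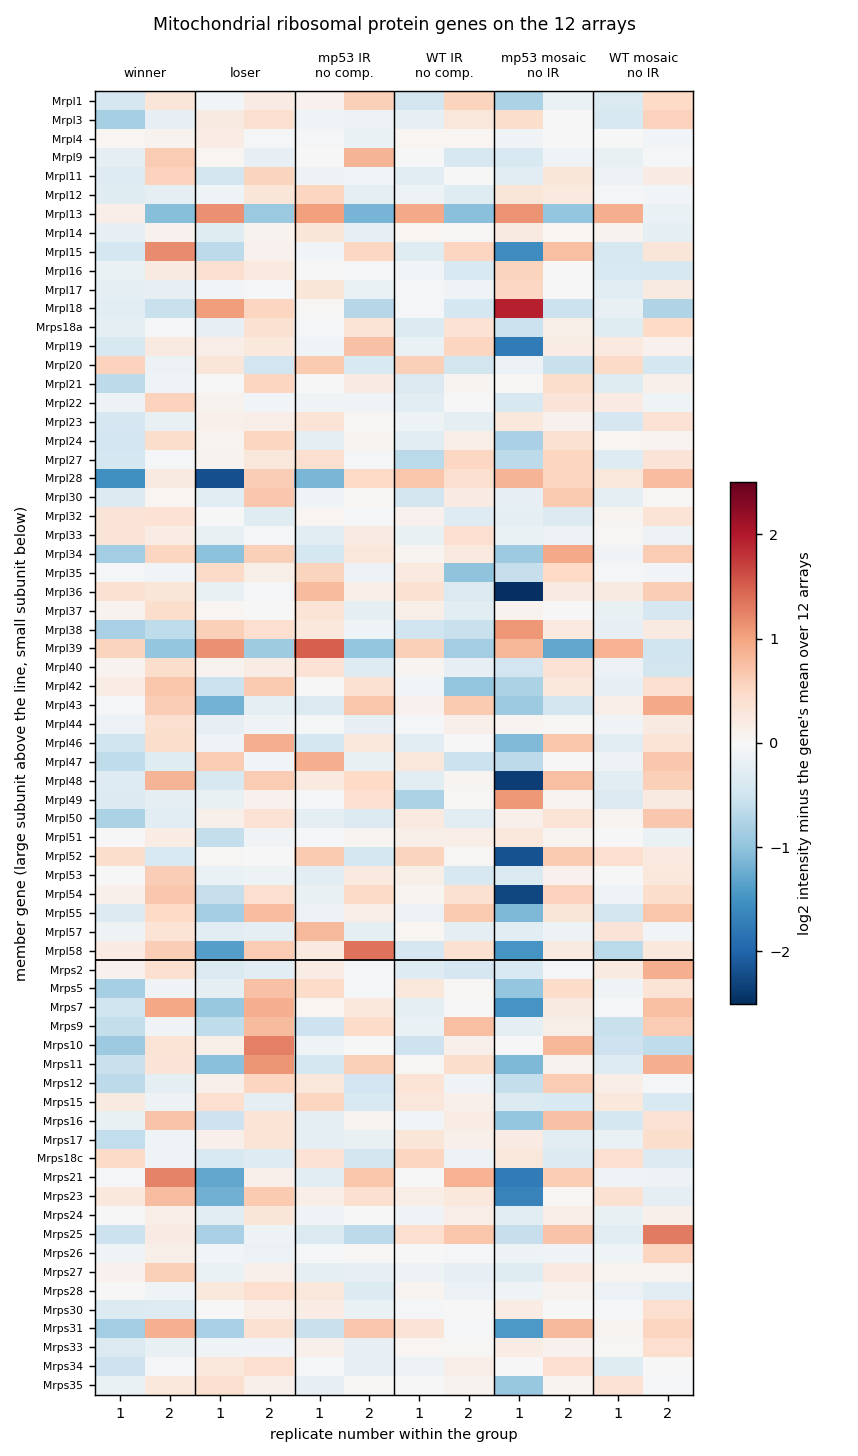
Log2 intensity of each of the 69 members (rows; large subunit above the line, small subunit by symbol below it) on each of the 12 arrays (columns, 2 per group), minus the member's mean over the arrays; red is above and blue below that mean. In the rows of Mrpl13 and Mrpl39 replicate 1 lies above replicate 2 in all 6 groups, and replicate 1 of the mp53 cells of unirradiated mosaic mice holds the lowest value of 24 members.

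Mitochondrial ribosomal protein genes are among the nuclear genes whose promoters often hold sites for ETS-family factors, NRF1 and YY1. RefSeq promoter windows (build GRCm38.p6, 250 bases before to 50 after the start) were at hand for 60 of the 69 members, and the first listed window of a gene was used. The letters were searched on both strands, and the shares are descriptions with no test. The ETS core CCGGAAG stood in 23 of the 60 windows (38.3%), against 9.12% of the windows of all 27025 genes. The YY1 core AAGATGGC stood in 12 (20%, against 2.88%), and the NRF1 core GCGCATGC in 6 (10%, against 2.80%). The E-box CACGTG stood in 4 (6.67%, against 7.24%) and the CCAAT box in 24 (40%, against 37.9%). In the same windows the ETS core was found for 29.3% of 41 cytosolic ribosomal protein genes and for 25% of 56 respiratory chain genes. In the same order, the YY1 core was found for 12.2% and 14.3% of them and the NRF1 core for 4.88% and 16.1%. The members' windows had a median of 58.5% G and C, against 52.7% for all genes, and the shares were not adjusted for base composition. The NRF1 core can overlap its own reverse complement, and a window counted once however many matches it held.

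The stretches below show these cores in members that recur in the results, from 90 bases before to 30 after the start, 5′ to 3′ in the direction of the gene, with ETS, NRF1 and YY1 cores in capitals. Mrpl43 and Mrpl58 hold 2 ETS cores each, Mrpl33 an NRF1 and an ETS core side by side, and Mrpl32 NRF1 cores on both strands, 2 of which overlap. In Mrps18a and Mrps7 the YY1 core follows the start. Mrpl50 has none of the 3 cores in its stretch.
Mrpl43, chr19:45006413-45006532, minus strand: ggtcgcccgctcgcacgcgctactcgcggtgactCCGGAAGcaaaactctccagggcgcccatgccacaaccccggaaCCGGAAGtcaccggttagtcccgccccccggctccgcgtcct
Mrpl58, chr11:115403662-115403781, plus strand: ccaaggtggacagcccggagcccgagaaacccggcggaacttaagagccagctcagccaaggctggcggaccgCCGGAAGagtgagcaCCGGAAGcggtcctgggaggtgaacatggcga
Mrpl33, chr5:31613861-31613980, plus strand: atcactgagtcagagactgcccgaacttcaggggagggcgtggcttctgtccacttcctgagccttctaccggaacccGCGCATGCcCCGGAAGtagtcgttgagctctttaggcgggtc
Mrpl32, chr13:14613008-14613127, minus strand: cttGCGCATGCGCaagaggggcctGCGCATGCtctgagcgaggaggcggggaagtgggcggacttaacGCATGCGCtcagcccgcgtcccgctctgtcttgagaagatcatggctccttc
Mrps18a, chr17:46110914-46111033, plus strand: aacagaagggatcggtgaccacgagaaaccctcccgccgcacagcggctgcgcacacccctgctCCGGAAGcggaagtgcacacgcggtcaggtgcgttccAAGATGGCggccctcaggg
Mrps7, chr11:115604050-115604169, plus strand: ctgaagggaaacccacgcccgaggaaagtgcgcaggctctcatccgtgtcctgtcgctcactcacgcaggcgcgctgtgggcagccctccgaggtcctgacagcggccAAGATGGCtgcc
Mrpl50, chr4:49521054-49521173, minus strand: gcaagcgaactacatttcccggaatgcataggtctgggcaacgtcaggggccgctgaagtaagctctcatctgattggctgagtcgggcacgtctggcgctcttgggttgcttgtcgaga

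The central comparison set winners against losers, the mp53 and the WT cells of irradiated mosaic mice. With the quantile normalization used here the members as a group lay where all probes lay, and with median scaling all 69 lay higher in winners. Their median difference was 0.020 log2 (winner minus loser), against -0.024 over all 17046 probes tested, with 36 members above 0 and 33 below. The authors' processed table put 34 members above 0 and 35 below. Where each array was instead scaled by its median, the members' median was 1.56 and that of all probes 0.71, and 63 members lay above that all-probe median. No member passed an adjusted p of 0.05 in the limma fit, and neither did any other probe (0%). The smallest adjusted p of a member was 0.303, for Mrpl38. At an unadjusted p under 0.05 there were 3 members (4.35%), all with lower levels in winners, against 12% of all probes. With the replicate number as a block there were 9 members, 2 higher and 7 lower, against 22.5% of all probes. Members that reached the unadjusted threshold only with the block are named below after their values were seen.

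Mrpl38, a mitochondria-specific protein of the large subunit, had the largest negative difference. Its level was 6.93 and 7.10 in winners, against 8.34 and 8.15 in losers, so the groups did not overlap. The difference was -1.23 log2 (SE 0.32, adjusted p 0.303), but 0.79 with median scaling in place of quantile normalization. The gene's other passing probe went the other way (0.41), and the mean of both probes gave -0.41.

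Mrpl50, another mitochondria-specific large subunit protein, had levels of 8.64 and 9.17 in winners and 9.57 and 9.79 in losers. Its difference was -0.78 (SE 0.32, adjusted p 0.391; 1.29 with median scaling). Mrps34, a small subunit protein whose loss in humans causes a mitochondrial disease, had 9.46 and 9.92 in winners, against 10.24 and 10.39 in losers. Its difference was -0.63 (SE 0.28, adjusted p 0.415; 1.46 with median scaling). In all 3 genes both winner arrays lay below both loser arrays. Over the 69 members there were, with quantile normalization, 19 such genes lower in winners (25.9% of all probes) and 10 higher (23.3% of all probes). Of those higher, Mrps2, Mrpl32, Mrpl53 and Mrpl57 were detected on neither loser array, so their order is set against background.

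The other large negative differences, positive like those of every member with median scaling, were those of Mrpl18 (-1.20, SE 0.70), a large subunit protein that binds 5S rRNA in bacteria, of Mrps10 (-0.99, SE 0.52) and of Mrpl3 (-0.83, SE 0.38). The adjusted p was 0.511 for Mrpl18, 0.478 for Mrps10 and 0.434 for Mrpl3. The other passing probes of Mrpl3 went the other way, at 0.061 and 0.13. The largest positive differences were those of Mrps21 (1.18, SE 0.84), Mrpl43 (1.00, SE 0.50), Mrps23 (0.79, SE 0.68) and Mrpl58 (0.78, SE 0.79). Mrpl58 is a peptidyl-tRNA hydrolase that became a ribosomal protein. The 4 had adjusted p-values from 0.460 to 0.699. Mrpl43 had 6.69 and 7.34 in winners and 5.55 and 6.48 in losers, so these arrays did not overlap. For Mrps21 the arrays overlapped: 6.91 and 8.20 in winners, against 5.66 and 7.08 in losers. For Mrpl58 the replicate 2 arrays differed by -0.022, and loser replicate 1 did not detect it, so the fitted value is set in part against background.

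Bright and dim members took opposite sides in this comparison with quantile normalization, but not with median scaling, a split made after the values were seen and therefore without a test. Of the 34 members with a mean level over the members' median, 25 lay lower in winners, with a median difference of -0.34. Of the other 35, 27 lay higher, with a median of 0.25. Among these 35, Mrpl53, Mrps2, Mrpl44, Mrpl9, Mrpl4, Mrpl32, Mrps26 and Mrpl57 were detected on neither loser array, and all of them lay higher. Others, such as Mrpl58 and Mrpl34, were not detected on loser replicate 1. These values are set in part against background. Mrpl4 was detected on both winner arrays and on no others, and passed the filter only through them. Over all probes on the same sides of that level the medians were -0.11 and -0.0067. With median scaling all members of both sets lay higher in winners, with medians of 1.68 for the brighter and 1.16 for the dimmer ones, and in the processed table the medians were -0.31 and 0.18. After quantile normalization the split was present within both replicate numbers: the brighter members had medians of -0.35 and -0.33 and the dimmer ones of 0.16 and 0.21. Winner replicate 2 was the brightest array and loser replicate 1 the dimmest but one, and their part in this was not tested.

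**Figure D2:**
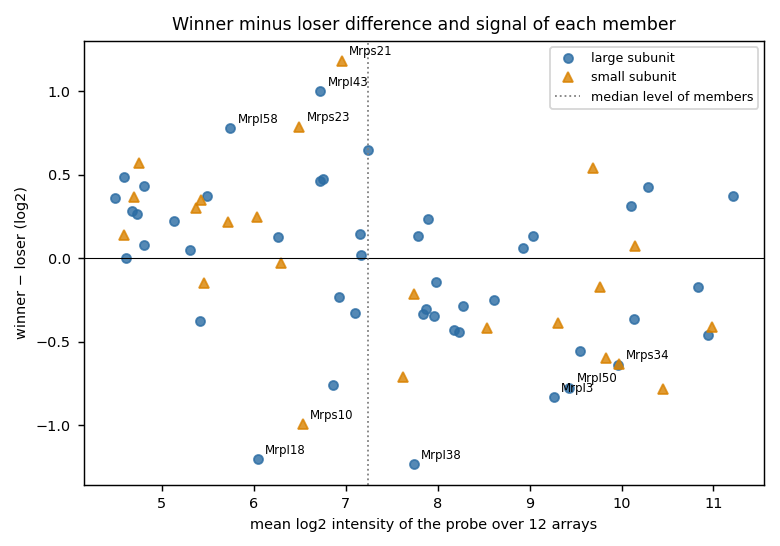
Winner minus loser difference (log2, vertical axis) of each of the 69 members against the mean log2 intensity of its probe over the 12 arrays (horizontal axis); circles are large and triangles small subunit genes, and the dotted line is the members' median level. To the right of the line 25 of 34 members lie below 0. Of the 35 at or under the line 27 lie above 0, some of them detected on neither loser array. With median scaling all 69 lie above 0.

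By role, the members of the fixed list went different ways without passing the test, and all one way with median scaling. Mrpl12, the stalk protein that has also been described as a partner of the mitochondrial RNA polymerase, had 9.83 and 9.91 in winners and 10.02 and 10.44 in losers (difference -0.37, adjusted p 0.620). Mrpl11, at the base of the stalk, differed by 0.079 (adjusted p 0.954). Mrps12 had 9.80 and 10.20 in winners, against 10.58 and 10.98 in losers (difference -0.78, adjusted p 0.505), and its other passing probe also differed by -0.85. Mrps7 and Mrps16, both of the bacterial type, differed by 0.25 and 0.35. Mrps18a and Mrps18c, paralogs in different subunits, differed by -0.23 and 0.54. Mrpl42 differed by 0.37, Mrps30 by -0.41 and Mrps35 by -0.22. The adjusted p-values of these 7 genes ran from 0.528 for Mrps30 to 0.917 for Mrps7. Mrpl44, which has an RNase III-like fold, was not detected on either loser array or on winner replicate 1. Mrpl11 was not detected on replicate 1 of the winners and of the losers, and Mrps16 not on loser replicate 1.

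The medians of subunits and classes lay near one another. The large subunit had a median of 0.034 and the small subunit of -0.031. The bacterial type had -0.14 with 17 of 38 members above 0, and the mitochondria-specific class 0.13 with 19 of 30 above 0. The 3 genes under the unadjusted threshold were all mitochondria-specific.

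The groups of genes most like them had medians further from 0 in the same comparison after quantile normalization. With median scaling this held only for the respiratory chain. The 52 cytosolic ribosomal protein genes had a median of -0.39, with 45 lower in winners. The 69 respiratory chain genes had a median of 0.25, with 50 higher. The 42 other genes of mitochondrial translation had a median of -0.25, with 29 lower. Of these 42 genes, 2 (4.76%, against 12% of all probes) were under an unadjusted p of 0.05, both with lower levels in winners. Dhx30, an RNA helicase of mitochondrial ribosome assembly, had 9.71 and 9.72 in winners and 10.50 and 10.80 in losers (difference -0.93, SE 0.22, adjusted p 0.288; 1.10 with median scaling). Ears2, the mitochondrial glutamyl-tRNA synthetase, had 5.35 and 4.79 in winners, against 7.14 and 6.12 in losers (difference -1.57, SE 0.47, adjusted p 0.305; -0.30 with median scaling). With median scaling these directions became 52 of 52 higher for the cytosolic list (median 1.19), 68 of 69 for the respiratory chain (2.01) and 37 of 42 for the other translation genes (1.22). The differences between these lists were not tested.

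Markers of HSCs and of other cells differed between winners and losers, as a description. All 9 measured HSC markers lay lower in winners, with a mean level of 5.55 to 5.92 in winners and 7.40 to 7.71 in losers; with median scaling 6 of the 9 lay lower. Slamf1 and Hoxa9 were detected on neither winner array. All 13 granulocyte and monocyte markers lay higher (9.64 to 9.77 in winners, against 6.25 to 8.04 in losers). So did all 3 of T and NK cells (6.84 to 7.40 against 4.68 to 6.19) and 5 of 6 erythroid ones (7.59 to 7.74 against 4.98 to 6.76). Of the B lineage, Cd79b, Vpreb1, Blnk and Ebf1 lay higher. With Cd79a their mean levels were 6.54 to 7.90 in winners, against 4.89 to 5.24 in losers. Cd79a was detected on 2 arrays, both of winners, and passed the filter only through them, so its direction was set in advance. All 6 cell cycle markers lay higher too (8.15 to 8.45 in winners, against 6.97 to 7.07 in losers). In losers, Irf8, Blnk, Ebf1, Cd79a, Cd3e and Top2a were not detected on either array. The part of these cells in the members' values was not tested. In bulk samples, fewer cells of a type and less RNA per cell cannot be told apart.

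Against their non-competing counterparts the members again lay with the background after quantile normalization. The median was 0.056 for losers minus non-competing irradiated WT cells (all probes 0.025) and -0.080 for winners minus non-competing irradiated mp53 cells (all probes -0.038). With median scaling these were -0.62 (all probes -0.18) and 0.53 (all probes 0.23). No probe passed the adjusted threshold in either (0%). Under the unadjusted one there was 1 member in each, Mrpl38, against 3.83% and 2.63% of all probes. With the replicate block there were 4 and 3 members, against 9.06% and 4.97%. Mrpl38 had 8.34 and 8.15 in losers, against 7.24 and 7.19 in non-competing irradiated WT cells (difference 1.03, SE 0.32, adjusted p 0.992). It had 6.93 and 7.10 in winners, against 8.02 and 7.63 in non-competing irradiated mp53 cells (difference -0.81, SE 0.32, adjusted p 1). Neither pair of groups overlapped for this gene. With median scaling these differences were 0.10 and -0.12. The gene's other probe gave -0.96 and 0.18, and the mean of both probes 0.033 and -0.31. In losers against non-competing irradiated WT cells all 9 HSC markers lay higher (median 0.74) and all 13 granulocyte and monocyte markers lower (median -2.10). In winners against non-competing irradiated mp53 cells all 9 lay lower (median -1.03) and all 13 higher (median 2.25). Their part was not tested. Competing cells came from mosaic mice and their counterparts from WT or fully recombined mice, so competition and the kind of mouse cannot be told apart.

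The difference between these contrasts, the interaction of competition with genotype, was -1.84 for Mrpl38 (SE 0.46, adjusted p 0.678). It was -0.23 with median scaling, -0.35 with the mean of both probes and 1.15 for the other probe alone. Mrpl38 was the only member under the unadjusted threshold there (6.79% of all probes; with the block 3 members and 13.2%). Averaged over genotypes, competition put no member under that threshold (0.845% of all probes). With the block there was 1, Mrpl43 (-0.48; 1.88% of all probes). Both comparisons had 0% past the adjusted threshold.

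With quantile normalization the members lay near the background for mutant p53 without competition too. In unirradiated mosaic mice the median of mp53 minus WT cells was -0.13, with 50 of 69 members lower, against -0.019 for all probes. Within replicate 1, which holds the dimmest array, the median was -0.32, and within replicate 2 it was 0.015. In irradiated, non-competing mice the median was 0.037, against 0.0050 for all probes. With median scaling the medians were -1.11 (all probes -0.38) in unirradiated and 0.42 (all probes 0.16) in irradiated mice. No probe passed the adjusted threshold in either comparison (0%).

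In the unirradiated mice 3 members were under the unadjusted threshold (4.44% of all probes; 6 members and 11.6% with the block). Mrpl16, a bacterial-type protein of the large subunit, had 8.84 and 8.28 in mp53 cells, against 7.90 and 7.88 in WT cells. Its difference was 0.67 (SE 0.27, adjusted p 0.869), but 0.39 without the dimmest array and -0.81 with median scaling. Mrpl43 had 5.82 and 6.27 in mp53 cells and 6.89 and 7.67 in WT cells (difference -1.24, SE 0.50, adjusted p 0.869). Mrps2, the counterpart of a bacterial small subunit protein, was detected on both WT arrays and on neither mp53 array. It was at least 1.33-fold lower in mp53 cells (measured means 4.54 in mp53 and 5.32 in WT cells, adjusted p 0.869), the bound setting an undetected value no lower than the array's lowest detected one. The arrays of both groups did not overlap for any of these genes.

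In the irradiated, non-competing mice no member was under the unadjusted threshold (1.02% of all probes). With the block there was 1 (2.17%), Mrps25, with 5.01 and 4.73 in mp53 cells and 5.78 and 6.06 in WT cells (difference -1.05). Averaged over the 3 pairs of mp53 and WT groups, no member was under it either (2.14%), and with the block there were 2 (4.18%), Mrps17 (-0.40) and Mrpl50 (-0.40). The largest averaged differences were -0.42 for Mrpl52, -0.40 for Mrps25, 0.39 for Mrpl58, 0.33 for Mrpl49, 0.26 for Mrpl9 and 0.24 for Mrpl42. The other passing probe of Mrps25 gave an average of 0.075. Mrpl52 was not detected on the dimmest array, and without that array its value was 0.052. Without it Mrps25 had -0.19, Mrpl58 0.67, Mrpl49 0.16 and Mrpl42 0.42. All had an adjusted p of 1, and no probe passed (0%). The averaged median was -0.052, against -0.0015 for all probes, and 0.28 against 0.14 with median scaling.

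**Figure D3:**
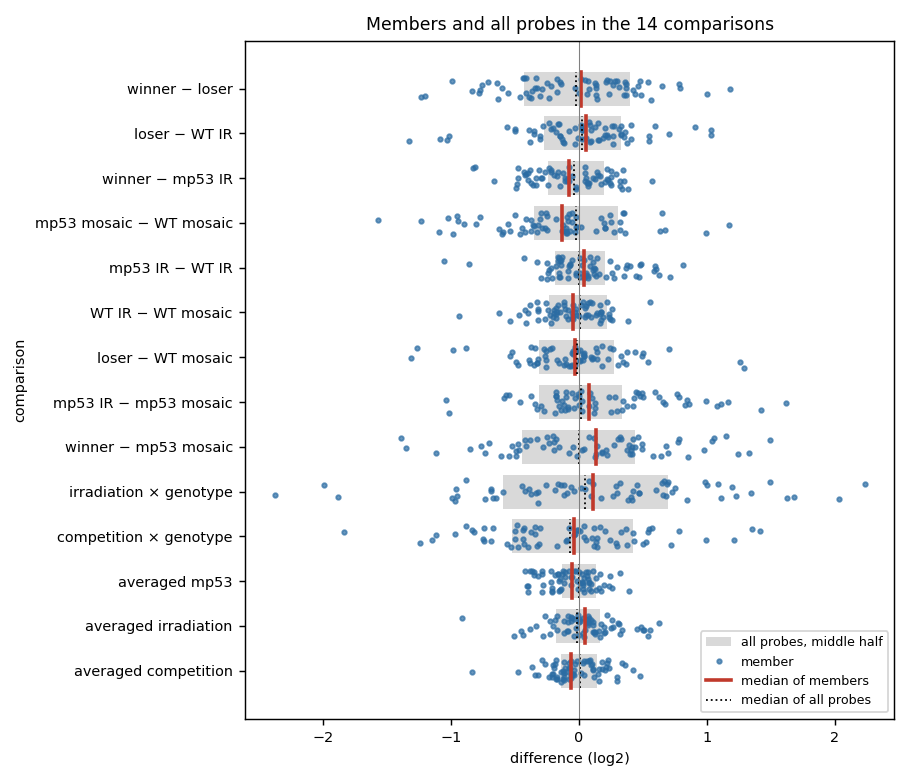
Difference (log2, horizontal axis) of each of the 69 members (blue points) in each of the 14 comparisons (vertical axis), with the members' median in red, the median of all 17046 probes dotted and the range between the quartiles of all probes in grey. The members' medians lie between -0.13 and 0.14 and inside the grey band in every comparison; with median scaling they run from -1.13 to 2.69.

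Irradiation was compared within each genotype, and after quantile normalization the members' medians again lay near those of all probes. For non-competing irradiated WT minus unirradiated mosaic WT cells the median was -0.047 (all probes 0.010), and for losers minus the same cells -0.032 (all probes -0.012). It was 0.079 for non-competing irradiated mp53 minus unirradiated mosaic mp53 cells (all probes 0.019) and 0.14 for winners minus the same cells (all probes 0.0027). With median scaling, in the same order, they were -0.46 (all probes -0.15), -1.13 (-0.43), 1.16 (0.37) and 1.57 (0.67). These pairs share their unirradiated arrays. The unirradiated cells came from mosaic mice and the non-competing irradiated cells from WT or fully recombined mice. Irradiation and the kind of mouse therefore cannot be told apart in those pairs. In winners and losers irradiation and competition cannot be told apart. In all 4 comparisons 0% of the probes passed the adjusted threshold.

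Mrps2 was the only member under the unadjusted threshold in non-competing irradiated WT cells (1.74% of all probes; also 1 member and 3.89% with the block). It was detected on neither of their arrays and was at least 1.5-fold lower than in unirradiated WT cells (measured means 4.38 and 5.32). In losers it was likewise detected on neither array and at least 1.37-fold lower (4.44 against 5.32). The comparison of losers with unirradiated WT cells had 4 members under the threshold (4.01%; 6 members and 9.56% with the block).

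Mrps10, a bacterial-type small subunit protein, had 6.69 and 7.80 in losers, against 6.01 and 5.89 in unirradiated WT cells (difference 1.29, SE 0.52; 0.15 with median scaling and 0.74 without loser replicate 2). Mrpl43 had 5.55 and 6.48 in losers, against 6.89 and 7.67 in unirradiated WT cells (difference -1.26, SE 0.50). Mrpl16 had 8.68 and 8.52 in losers, against 7.90 and 7.88 in the WT cells (difference 0.71, SE 0.27; -0.79 with median scaling). The arrays did not overlap for any of the 3, and each adjusted p was 1.

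Non-competing irradiated mp53 cells had no member under the unadjusted threshold against unirradiated mp53 cells (3.46%), and 4 with the block (8.70%): Mrpl58 (1.43), Mrpl19 (1.08), Mrpl43 (0.85) and Mrpl1 (0.83), all with positive differences. Without the dimmest array, which did not detect Mrpl58, these were 0.58 for Mrpl58, 0.11 for Mrpl19, 0.62 for Mrpl43 and 0.52 for Mrpl1. On all arrays the other passing probes of Mrpl1 gave -0.88 and -0.11, opposite in sign to the probe used. Winners had 3 against the same cells (11.7%; 9 members and 23.0% with the block). Here too all 9 HSC markers lay lower in winners (median -1.87) and all 13 granulocyte and monocyte markers higher (median 1.78), and their part was not tested. Mrpl38 had 6.93 and 7.10 in winners, against 8.82 and 7.99 in unirradiated mp53 cells (difference -1.39, SE 0.32, adjusted p 0.385; 0.65 with median scaling). Mrpl50 had 8.64 and 9.17, against 9.57 and 9.77 (difference -0.76, SE 0.32, adjusted p 0.408; 1.28 with median scaling). Mrpl32, which in mice is cut to its mature form by a mitochondrial protease before assembly, was detected on both winner arrays (4.93 and 4.95) and on neither of the unirradiated mp53 arrays (4.36 and 4.24). It was at least 1.02-fold higher in winners (adjusted p 0.401). The other passing probe of Mrpl38 gave 0.70 in this comparison.

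Averaged over the 4 irradiated minus unirradiated differences, 2 members were under the unadjusted threshold (3.20%). Both had a negative average, Mrpl38 of -0.50 (SE 0.20) and Mrpl50 of -0.45 (SE 0.19). With median scaling they were -0.17 and -0.073. The mean of both Mrpl38 probes gave -0.032 and its other probe alone 0.44, and without the dimmest array the probe used gave -0.30. With the block Mrpl58 (0.63) joined them (3 members, 6.90%). Mrpl38 was not lower in all 4 differences: it gave -0.54 in non-competing irradiated WT cells and 0.49 in losers. In mp53 cells it gave -0.58 without competition and -1.39 in winners. For Mrpl50 all 4 were negative. The other large averaged differences were -0.91 for Mrpl28, -0.44 for Mrps25, 0.56 for Mrps23, 0.54 for Mrpl36 and 0.51 for Mrpl54. Mrps23, Mrpl36, Mrpl54, Mrps25 and Mrpl58 were not detected on the dimmest array. Without that array the values were 0.13 for Mrps23, -0.14 for Mrpl36, -0.20 for Mrpl54, -0.76 for Mrps25 and 0.20 for Mrpl58. For Mrpl28 the value was -1.61 in replicate 1 and -0.22 in replicate 2. The other passing probe of Mrps25 gave an average of 0.13. Every adjusted p was 1, and 0% of the probes passed.

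The interaction of irradiation with genotype in mosaic mice had the most members under the unadjusted threshold, 8 of 69, or 11.6%, against 13.8% of all probes (10 members and 25.1% with the block; 0% past the adjusted threshold). It subtracts the change in WT cells (losers minus unirradiated) from the change in mp53 cells (winners minus unirradiated). Mrpl43 had the largest positive value, 2.24 (SE 0.70, adjusted p 0.318), with 0.98 in mp53 cells and -1.26 in WT cells. Mrpl18 had the largest negative one, -2.38 (SE 0.99, adjusted p 0.350; 0.47 with median scaling), with -1.12 in mp53 cells and 1.26 in WT cells. Its level was 7.99 on the dimmest array and 5.51 on the other array of unirradiated mp53 cells, and without the dimmest array its value was -1.14. In the same interaction the 9 HSC markers had a median of -1.62 and the 13 granulocyte and monocyte markers one of 2.74, and their part was not tested.

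The other negative values were those of Mrps10 (-1.99, SE 0.74; 0.68 with median scaling), Mrpl38 (-1.89, SE 0.46; 1.65), Mrps34 (-0.99, SE 0.39; 2.52) and Mrpl16 (-0.96, SE 0.39; 2.57). Mrps2 and Mrpl32 were the others with a positive value. Both were undetected in losers and in unirradiated mp53 cells, so no exact difference is given. The adjusted p-values of these 6 genes ran from 0.299 for Mrpl38 to 0.344 for Mrpl16. The other passing probe of Mrpl38 gave 0.91 in this interaction. Leaving out replicate 2 of the unirradiated mp53 cells, so that only the dimmest array stood for that group, brought 4 members past the adjusted threshold, against 8.37% of all probes. They were Mrpl18 (-3.62), Mrpl38 (-2.30), and Mrpl36 and Mrpl54 with positive values, which were not detected on that array and so have no exact difference.

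**Figure D4:**
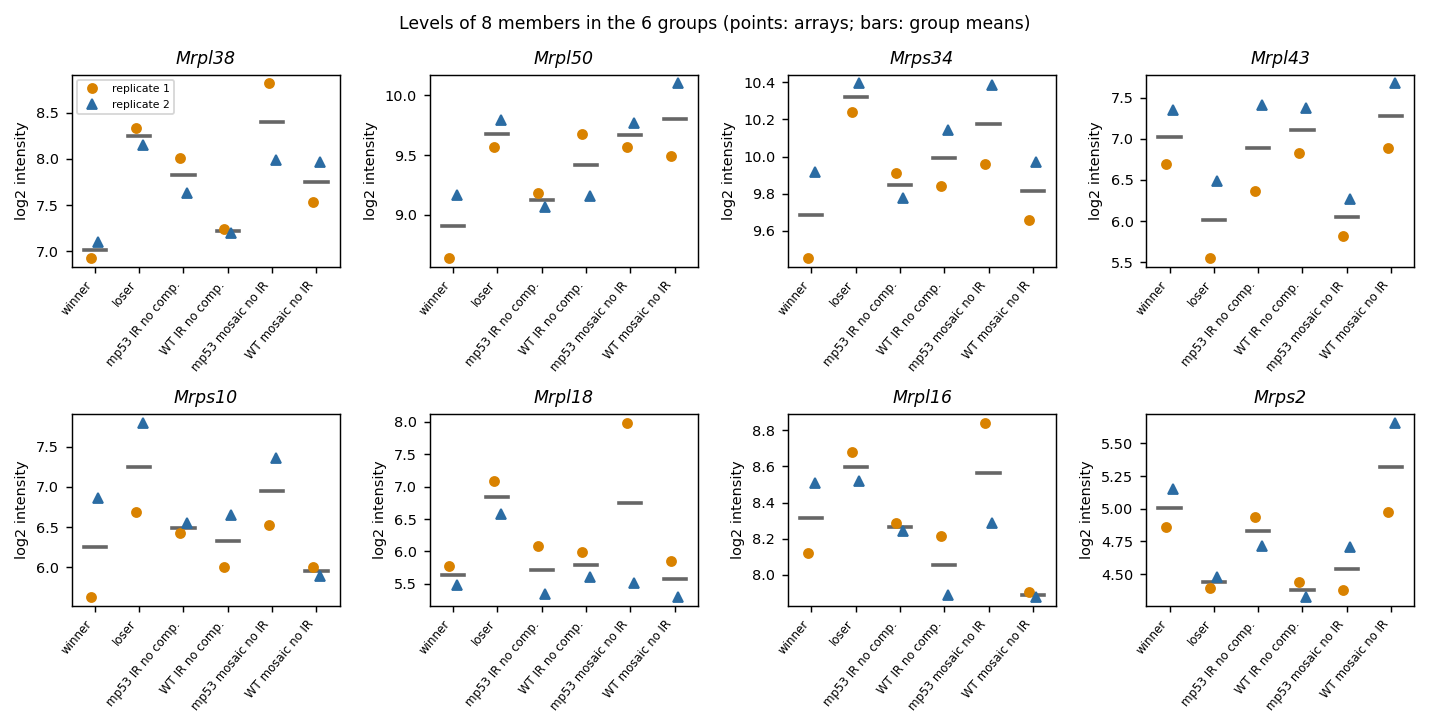
Log2 intensity (vertical axis) of 8 members in the 6 groups (horizontal axis; IR, irradiated; no comp., not competing); circles are replicate 1, triangles replicate 2 and bars group means. Mrpl38 lies at 6.93 and 7.10 in winners and at 8.34 and 8.15 in losers, an order that median scaling reverses, and Mrpl43 lies on the other side, at 6.69 and 7.34 in winners and 5.55 and 6.48 in losers.

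The members that passed the test did so not between groups but between the replicate numbers, which the authors deposited in separate tables. This comparison was added after the data were seen. Over the 6 groups, 20 members differed at an adjusted p under 0.05 in the limma fit with group and replicate number. Of these, 16 were higher in replicate 2, 23.2% of the members against 9.57% of all probes, and 4 were lower, 5.80% against 10.9%. This split moved with the scaling: it was 38 higher and 0 lower with median scaling, against 22.3% and 7.15% of all probes. It was 55 and 1 with quantile normalization within each replicate number (40.8% and 4.88% of all probes) and 52 and 1 in the authors' processed table (35% and 6.49%). Without background correction it was 17 and 4 (9.97% and 10.5%). In the main version, of the 35 members at or under the members' median level 11 were higher and 0 lower. These were 31.4% and 0%, against 8.78% and 10% of all probes up to that level. Of the 34 brighter members 5 were higher and 4 lower (14.7% and 11.8%), against 12.8% and 14.3% of all probes over that level. Other lists shifted between the replicate numbers as well. Of the 69 respiratory chain genes 27.5% were higher and 15.9% lower in replicate 2, and of the 52 cytosolic ribosomal protein genes 7.69% and 15.4%. The 13 granulocyte and monocyte markers had a median difference of 1.08 and the 6 erythroid ones of 0.81, while the 9 HSC markers had -0.39, with 22.2% lower. Their part in the members' values was not tested.

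Mrpl39, a mitochondria-specific large subunit protein, had 6.54 to 7.34 on the 6 arrays of replicate 2 and 8.40 to 9.34 on the 6 of replicate 1. The difference was -1.83 (SE 0.18, adjusted p 0.000627). Mrpl13, of the bacterial type, had 8.40 to 9.39 in replicate 2 and 9.73 to 10.70 in replicate 1 (difference -1.77, SE 0.19, adjusted p 0.00101). In both genes the replicate numbers did not overlap. All replicate 1 arrays lay above all replicate 2 arrays in 2 of the 69 members and in 1084 of all 17046 probes. The reverse order held for 11 members and 833 probes. The sign of Mrpl39 and Mrpl13 held in the other 4 versions of the values, at -0.55 to -1.62 and -0.32 to -1.70. The call did not hold in all of them. In the same fit the adjusted p of Mrpl39 was 0.0826 with median scaling. That of Mrpl13 was 0.275 with median scaling, 0.195 with normalization within each replicate number and 0.0646 in the processed table. Mrpl20 (-0.82) and Mrps18c (-0.56) were also lower in replicate 2, but had differences of 0.48 and 0.72 with median scaling and were also positive with normalization within each replicate number and in the processed table.

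Among the 16 higher in replicate 2, Mrpl58 and Mrps11 differed by 1.16 each, Mrps21 by 1.15, Mrpl15 by 1.14 and Mrpl1 by 0.67. Mrps11 had 5.55 to 6.56 in replicate 2 and 4.33 to 5.48 in replicate 1. Mrpl58, Mrps11, Mrps31, Mrps16 and Mrpl34 were not detected on replicate 1 of the losers and of the unirradiated mp53 cells. Mrpl34 was also not detected on winner replicate 1, and Mrps7 not on replicate 1 of the unirradiated mp53 cells. The values of these genes, all among the 16, are therefore set in part against background. Without the 2 groups that hold the dimmest arrays, both of replicate 1, 6 members were higher and 4 lower (3.61% and 6.95% of all probes). Without the winners alone they were 6 and 3 (4.50% and 6.17%), and without the losers alone 7 and 4 (4.77% and 6.01%).

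**Figure D5:**
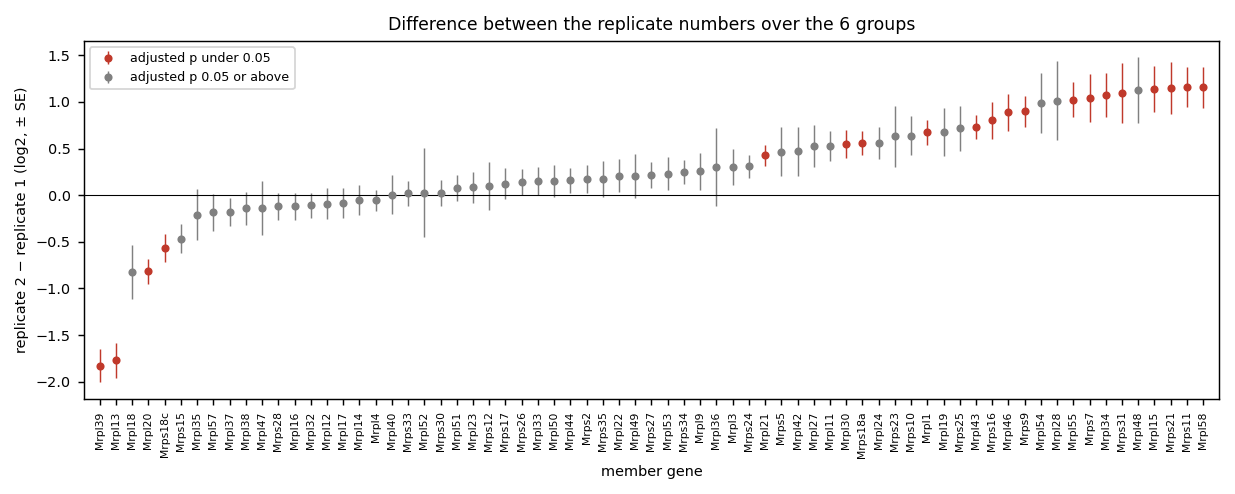
Difference between replicate 2 and replicate 1 (log2, vertical axis, bars ± SE of the limma fit over 6 groups) for each of the 69 members in rising order; red points have an adjusted p under 0.05. The 4 red points on the left run from -1.83 to -0.56 and the 16 on the right reach 1.16.

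The members' variation over the 12 arrays was compared pair by pair. The mean pairwise correlation between members was 0.130, against 0.00179 over all probes, 0.236 for cytosolic ribosomal protein genes and 0.114 for respiratory chain genes. All these genes share the same 12 arrays, and the values are descriptions. It was 0.0919 within the large and 0.216 within the small subunit. For the 34 brighter members it was 0.0947 and for the 35 dimmer ones 0.316, or 0.127 and 0.191 without the dimmest array. Without that array the members had 0.12, the cytosolic list 0.271 and the respiratory chain 0.0576. With the mean of each replicate number taken out, these lists had, in the same order, 0.104, 0.349 and 0.201. The largest standard deviations over the arrays were those of Mrpl28 (1.02), Mrpl39 (1.00), Mrpl13 (0.99) and Mrpl48 (0.87), and the smallest those of Mrpl4 (0.093), Mrpl44 (0.18), Mrps26 (0.19) and Mrps24 (0.19). Of the last 4, Mrps24 was detected on all 12 arrays, Mrpl44 on 7 and Mrpl4 and Mrps26 on 2, where a small spread is that of values at the background. Mrpl28 had 7.50, 6.84 and 7.90 on replicate 1 of the winners, the losers and the non-competing irradiated mp53 cells, and 9.27 to 9.88 on the other 9 arrays.

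Different probes of a gene did not always go together. For 15 members there were 20 further passing probes. Their correlation with the probe used ran from -0.739 (Mrpl38) to 0.985 (Mrpl15), with a median of 0.0848 over the 12 arrays. In winner minus loser, 7 of the 15 genes had probes of opposite sign. For Mrpl1 the probe used was higher in replicate 2 by 0.67 (adjusted p 0.015) and a second one differed by -1.22 (adjusted p 0.0125). A value given here therefore belongs to its probe.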

How the data were processed

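Gene expression was measured on Illumina bead arrays. Per the labels, RNA of 200 sorted cells was isolated with Trizol, amplified with a RiboAmp HS kit, the biotin label entering by in vitro transcription in the second round. Per the file headers, the authors deposited linear intensities and detection p-values of all probes, in 1 non-normalized table per replicate number. Scanner software and the origin of the detection p-values were not given in the sources used here. Also deposited by the authors was a processed table of intensities, which lacked 7 values and served as an alternative.

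Background was removed by normexp using those p-values (offset 16), and the values were quantile normalized over the 12 arrays and put on the log2 scale, as neqc does (limma 3.58.1, R 4.3.3). Of 46632 probes, 17046 had a detection p-value under 0.05 on at least 2 arrays, 12610 of them with 1 symbol in the platform annotation. All 69 members were found by gene ID in a RefSeq table of GRCm38.p6. One limma fit of 6 group means, leaving 6 residual degrees of freedom, gave 14 comparisons (9 pairs, 2 interactions, 3 averages), with Benjamini-Hochberg adjustment over the 17046 probes. Of these probes, 4436 without a single symbol entered the fit but were not named. The median standard error of a pair of groups was 0.42 log2. Precision is limited by the number of arrays.

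The replicate numbers name the deposited tables. Replicate differences correlated between every pair of groups (15 pairs, r 0.101 to 0.622), so the replicate number was also fitted as a block. Members and lists were chosen with earlier results of these data known. The genes named were, by rule, the members under an unadjusted p of 0.05, the 4 largest differences each way in winner minus loser and in the averaged mp53 and irradiation effects, the brightest, dimmest, most and least variable members, a list by role, and the other mitochondrial translation genes under that threshold in winner minus loser. Members named for the replicate difference or under the block alone were chosen after their values were seen. The fits were tested on simulated data. Alternatives covered scaling, background correction, filters, probe choice, brightness as a covariate and each array left out.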

Additional observations from a re-analysis of the deposited data

How the results depend on the processing

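Under 26 alternatives no comparison gained a member past the adjusted threshold except without replicate 2 of the mp53 cells of unirradiated mosaic mice. That setting leaves the dimmest array alone in its group, assumed to vary like the others, and called 1 member in mp53 minus WT of unirradiated mosaic mice (0.927% of all probes) and 1 in non-competing irradiated minus unirradiated mp53 cells (0.651%), Mrpl36 in both. It called 4 in winners minus unirradiated mp53 cells (6.88%) and 4 in the interaction of irradiation with genotype (8.37%), so these counts ran from 0 to 1 and from 0 to 4 over the arrays left out. The replicate block changed no call. It changed only the counts under the unadjusted threshold, given above. Over all probes and comparisons, the 0 calls became 3 with median scaling, 1 without the filter, 3 without winner replicate 1, 1 without replicate 1 and 2868 without replicate 2 of the unirradiated mp53 cells, and 1 without the 2 dimmest arrays.

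The members' median relative to all probes moved by more than its spread between replicates (0.44) under median scaling: to 0.85 for winner minus loser, -0.44 for loser minus non-competing irradiated WT, -0.73 for mp53 minus WT of unirradiated mosaic mice, -0.71 for loser minus unirradiated WT, 0.79 for non-competing irradiated minus unirradiated mp53, 0.89 for winner minus unirradiated mp53, 1.53 for irradiation by genotype and 0.62 for competition by genotype. With array brightness as a covariate it moved to -0.51 for winner minus loser, -0.62 for irradiation by genotype and -0.44 for competition by genotype. The causes were not tested. Median scaling also turned the sign of Mrpl38 (0.79), Mrpl50 (1.29) and Mrps34 (1.46) in winner minus loser, of Mrpl38 (0.65) and Mrpl50 (1.28) in winner minus unirradiated mp53 and of Mrpl16 in mp53 minus WT of unirradiated mice (-0.81) and loser minus unirradiated WT (-0.79). In irradiation by genotype it turned Mrpl18 (0.47), Mrps10 (0.68), Mrpl38 (1.65), Mrps34 (2.52) and Mrpl16 (2.57).

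The 16 members higher in replicate 2 (9.57% of all probes) became 38 with median scaling (22.3%), 55 with quantile normalization within each replicate number (40.8%), 52 in the authors' processed table (35%), 6 without the winners (4.50%), 7 without the losers (4.77%) and 6 without the groups of the 2 dimmest arrays (3.61%). The 4 lower ones (10.9% of all probes) became 0 with median scaling (7.15%), 1 with normalization within each replicate number (4.88%) and 1 in the authors' processed table (6.49%).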
